A study of Mus musculus with 4 samples.

Results

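The 10 genes shown here are commonly used to recognise fibroblasts and other mesenchymal cells, and they were followed on arrays of sorted hair follicle stem cells: the fibrillar collagen genes Col1a1, Col1a2 and Col3a1, the proteoglycan genes Dcn and Lum, the surface protein genes Pdgfra and Thy1, the matrix protein gene Sparc, the protease gene Mmp2 and the cytoskeletal gene Vim. Every probe set whose platform annotation gives 1 of these symbols alone was taken, which gave 18 probe sets for the 10 genes, out of 20380 probe sets for 12393 genes. Of the 10 genes, 3 had 1 probe set, 6 had 2 and Vim had 3. Col1a1, Col3a1, Lum and Pdgfra lay in the dim range on all 4 arrays. Thy1, Sparc and Mmp2 read higher on both knockout arrays than on both wild type arrays, and Vim read lower.

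The cells came from back skin of female CD1/C57BL/6 mice at about postnatal day 60 and were sorted with YFP, integrin α6 and CD34. The groups were Tbx1 cKO, a conditional knockout of the T-box transcription factor gene Tbx1, with 2 arrays, and WT, also with 2 arrays. The titles number 1 cKO and 1 WT array as set 1 and the other pair as set 2. All 4 samples share a protocol of wax depilation 48 hours before harvest, whereas the descriptions call set 1 quiescent and set 2 activated, so the sets are called here by number. The promoter and cell type that drive the deletion, the source of the YFP and the number of animals behind an array are not stated in the labels. The p-values therefore cover only the variation among these 4 samples, and that may be technical variation. Unless the set is fitted too, any difference between the sets also counts as variation within a genotype. With 2 arrays a group, an exact permutation test of 1 value cannot go below p = 0.333.

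The bulge is the part of the hair follicle that holds its resting stem cells, which are keratinocytes wrapped in a dermal sheath of fibroblasts. Fibroblasts secrete type I and type III collagen and coat the fibrils with small leucine-rich proteoglycans. They receive PDGF, which the follicle epithelium makes, through the receptor that Pdgfra encodes. Several genes of the group are less specific: Sparc, Mmp2, Thy1 and Vim are also used by vessel cells, by some leukocytes or by keratinocytes that move or are stressed. Integrin α6 and CD34 also occur on endothelium, and CD34 on dermal fibroblasts.

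The sorts carried keratinocyte markers. All 12 measured genes of the bulge and basal keratinocyte list lay at or above the dim limit on at least 1 array. Krt15, a keratin of the bulge, read 13.93 and 13.94 in the cKO arrays against 13.39 and 13.47 in the WT arrays on the log2 scale of the deposited intensities. Cd34, whose protein was used in the sort, read 9.46 and 9.12 in the cKO arrays against 8.85 and 8.96 in the WT arrays. Lhx2, also on the list, read lower in cKO, at 10.92 and 10.99 against 11.44 and 11.37 in the WT arrays. Of the 12 genes, both cKO arrays lay above both WT arrays for 3 and below them for 2. Over all tested genes these orders occurred in 26.7% and 19.9%. The dim limit was a log2 intensity of 5.40, percentile 40 of the mean levels of all 22690 probe sets. The deposited values carry no detection call, so a level under this limit is only called dim. Tbx1 itself read 9.54 and 8.88 in the cKO arrays against 10.53 and 10.37 in the WT arrays (difference -1.24, SE 0.26, limma adjusted p = 0.272, and 0.0687 with the set as a block). Some arrays stood apart. The nuclear RNA Malat1 was highest on the WT set 2 array, at 12.35, with 9.80 to 10.56 elsewhere, and the added Dap control had a 3′ minus 5′ difference of 2.95 on the cKO set 1 array and 1.74 to 1.82 on the others.

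Of the 18 probe sets, 10 lay at or above the dim limit on all 4 arrays, 8 lay below it on all 4, and 0 crossed it. The 10 probe sets belong to 6 genes, Col1a2, Dcn, Thy1, Sparc, Mmp2 and Vim, and these entered limma's test over the 12527 probe sets that passed the limit on their mean. Levels of different probe sets are not compared with each other, because probes differ in how strongly they bind.

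**Figure D1:**
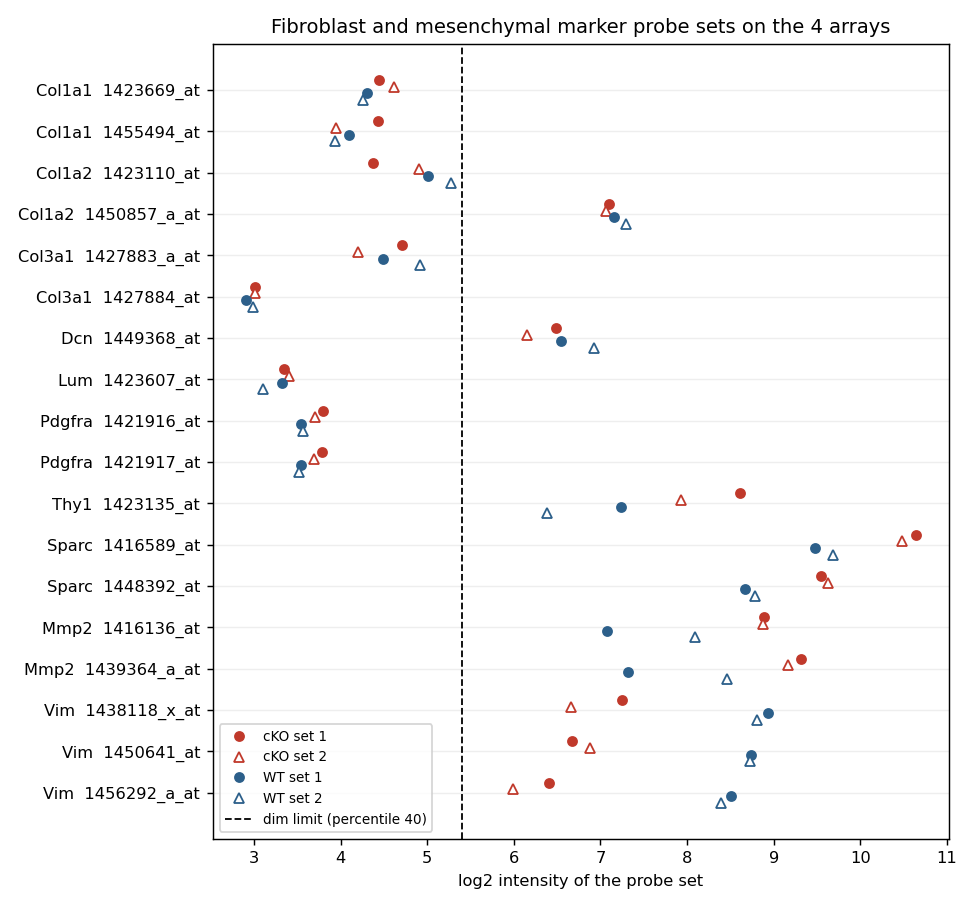
Log2 intensity (horizontal axis) of each of the 18 probe sets (rows) on the cKO arrays (red) and the WT arrays (blue), with circles for set 1, triangles for set 2 and a dashed line at the dim limit of 5.40. The 8 probe sets left of the line span 2.91 to 5.28, and the groups separate to the right in cKO for Thy1, Sparc and Mmp2 and to the left for Vim.

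The collagen genes of the fibroblast were dim with 1 exception, a probe set of Col1a2. Col1a1, which encodes the main chain of type I collagen, read 4.45 and 4.62 in the cKO arrays against 4.31 and 4.26 in the WT arrays on probe set 1423669_at. Its second probe set, 1455494_at, read 4.43 and 3.95 in the cKO arrays against 4.10 and 3.94 in the WT arrays. All of these values lay under the limit. Col3a1, which encodes type III collagen of soft tissue, read 4.71 and 4.20 in the cKO arrays against 4.49 and 4.91 in the WT arrays on 1427883_a_at. Its other probe set stayed between 2.91 and 3.02 on the 4 arrays. Col1a2, which encodes the partner chain of Col1a1, gave different pictures with its probe sets: 1423110_at lay under the limit on every array, whereas 1450857_a_at lay above it on every array.

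That brighter Col1a2 probe set read 7.09 and 7.06 in the cKO arrays against 7.15 and 7.29 in the WT arrays. Both cKO values were below both WT values, by a small amount (difference -0.14, SE 0.16, limma adjusted p = 0.741). The dim probe set read 4.38 and 4.91 in the cKO arrays against 5.01 and 5.28 in the WT arrays. It had the same order of groups. It was left out of the main test as dim, and without that filter the difference was -0.50 (limma adjusted p = 0.507). Which transcripts each of these probe sets detects is not stated in the annotation.

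Of the proteoglycans, decorin was above the limit and lumican was not. Lum, whose product spaces collagen fibrils, read 3.34 and 3.41 in the cKO arrays against 3.32 and 3.10 in the WT arrays. Dcn, whose product binds type I collagen and transforming growth factor β, read 6.48 and 6.15 in the cKO arrays against 6.55 and 6.93 in the WT arrays. The cKO arrays lay below the WT arrays for Dcn, but by 0.06 in set 1 and 0.78 in set 2, with a mean difference of -0.42 (SE 0.22, limma adjusted p = 0.498). Without the WT set 1 array this difference was -0.61 and without the WT set 2 array it was -0.23, and without the cKO set 2 array it was -0.25.

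Pdgfra, the PDGF receptor by which dermal fibroblasts are often sorted, stayed dim on both of its probe sets. One read 3.80 and 3.71 in the cKO arrays against 3.54 and 3.57 in the WT arrays, and the other 3.78 and 3.69 in the cKO arrays against 3.55 and 3.52 in the WT arrays. Both were left out of the main test as dim, and without that filter limma's adjusted p was 0.615 and 0.601.

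Thy1, which encodes the small surface glycoprotein CD90 of fibroblasts, T cells and neurons, was higher in cKO within each set. Measured by 1 probe set, it read 8.61 and 7.93 in the cKO arrays against 7.24 and 6.38 in the WT arrays. The highest WT value, from set 1, lay below the lowest cKO value, from set 2, so the groups did not overlap. The difference was 1.36 in set 1 and 1.55 in set 2, with a mean of 1.46 (SE 0.37), which puts the cKO signal at 2.74 times that of WT. This did not pass limma's test (adjusted p = 0.324). It passed with the set as a block (adjusted p = 0.0376). Thy1 was also lower in set 2 than in set 1 in both genotypes, by 0.68 between the cKO arrays against 0.86 between the WT arrays.

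Sparc encodes osteonectin, a secreted protein that binds collagen and calcium and loosens the contact of cells with the matrix. Probe set 1416589_at read 10.64 and 10.48 in the cKO arrays against 9.47 and 9.68 in the WT arrays. Probe set 1448392_at read 9.54 and 9.63 in the cKO arrays against 8.67 and 8.78 in the WT arrays. Both probe sets thus put both cKO arrays above both WT arrays, with differences of 0.98 (SE 0.17) and 0.86 (SE 0.16). They correspond to 1.98 and 1.82 times the WT signal. Both were read on the same arrays and have the same source accession in the annotation, so they are not independent measurements of the gene. Neither passed limma's test (adjusted p = 0.251 and 0.270), with the set as a block (0.0969 and 0.107) or without it.

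Mmp2 encodes gelatinase A, a protease that cuts denatured collagen and the type IV collagen of basement membranes. Probe set 1416136_at read 8.88 and 8.88 in the cKO arrays against 7.08 and 8.09 in the WT arrays. Probe set 1439364_a_at read 9.32 and 9.16 in the cKO arrays against 7.32 and 8.46 in the WT arrays. As for Sparc, both probe sets were read on the same arrays and are not independent measurements. The cKO arrays were close to each other, and the WT set 1 array was the lowest on both probe sets. The differences were 1.29 (SE 0.34) and 1.35 (SE 0.38), and neither passed limma's test (adjusted p = 0.329 and 0.339). Their size depended on the WT arrays. Without the WT set 1 array they were 0.79 and 0.78, and without the WT set 2 array 1.80 and 1.92.

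Vim encodes vimentin, the intermediate filament protein of fibroblasts, endothelium and leukocytes, and it read lower in cKO on all 3 of its probe sets. Probe set 1450641_at read 6.67 and 6.87 in the cKO arrays against 8.73 and 8.72 in the WT arrays. Probe set 1438118_x_at read 7.24 and 6.66 in the cKO arrays against 8.93 and 8.80 in the WT arrays, and 1456292_a_at read 6.40 and 5.99 in the cKO arrays against 8.50 and 8.39 in the WT arrays. No cKO value reached a WT value on any of the 3 probe sets, and all cKO values stayed above the dim limit. The cKO signal was 25.7%, 26.6% and 21.1% of WT on these probe sets, in the same order. In sorted cells measured in bulk, fewer cells of a type that carries vimentin and less vimentin RNA per cell cannot be told apart.

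The Vim differences on 1450641_at, 1438118_x_at and 1456292_a_at were -1.96 (SE 0.17), -1.91 (SE 0.24) and -2.25 (SE 0.20). They missed the threshold in limma without a block (adjusted p = 0.0705, 0.153 and 0.0820). With the set as a block all 3 passed (adjusted p = 0.0191, 0.0256 and 0.0123), and with a variance trend and robust fit 1450641_at and 1456292_a_at did (0.0357 for both). With each array left out in turn, the differences ran from -2.45 to -1.62 over the 3 probe sets, and limma's adjusted p from 0.109 to 0.411. The 3 probe sets read RNA of the same samples on the same arrays, so they are not independent measurements of the gene. Of these, 1438118_x_at and 1456292_a_at also carry the same source accession in the annotation.

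The RefSeq promoter table of the mouse assembly GRCm38.p6 held 5 of the 10 genes, among them Vim and Sparc, whose differences between the genotypes had opposite signs. Their 250 bases before the annotated start are shown, 5′ to 3′ on the strand of the gene, for Vim at chr2:13574061-13574310 on the plus strand and for Sparc at chr11:55420081-55420330 on the minus strand. Capitals mark matches, on either strand, to any of 4 letter strings. The string searched for a T-box half-site, the kind of site that Tbx1 protein binds, was AGGTGTGA. That for the TATA box near the start of many genes was TATAAA. The box bound by the factor NF-Y was searched as CCAAT. The GC box, which proteins of the Sp family bind, was searched as GGGCGG.
Vim: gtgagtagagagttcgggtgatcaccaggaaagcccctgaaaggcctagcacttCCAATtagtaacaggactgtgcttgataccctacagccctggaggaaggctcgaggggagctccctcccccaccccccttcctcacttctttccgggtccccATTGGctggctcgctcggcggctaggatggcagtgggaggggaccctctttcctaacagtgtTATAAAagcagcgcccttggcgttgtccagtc
Sparc: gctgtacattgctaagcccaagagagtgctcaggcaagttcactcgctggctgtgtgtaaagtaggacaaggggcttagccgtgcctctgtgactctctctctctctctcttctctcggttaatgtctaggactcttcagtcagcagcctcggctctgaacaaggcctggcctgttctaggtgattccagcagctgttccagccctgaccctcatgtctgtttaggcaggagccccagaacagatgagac
The Vim window held a TATA box at -32 to -27, an NF-Y box at -196 to -192 on the plus strand and another at -94 to -90 on the minus strand. No match overlapped another. The Sparc window held none of the 4 letter strings, and neither window held the T-box half-site. Of the 32851 promoters of the table, 1.12% held the T-box half-site in these 250 bases, 12.4% a TATA box, 33.8% an NF-Y box and 32.7% a GC box.

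Across the 10 tested probe sets of the marker genes, 5 had both cKO arrays above both WT arrays (Thy1, both of Sparc and both of Mmp2), and 5 had both below (3 of Vim, Dcn and the brighter Col1a2). Over all 12527 tested probe sets these orders occurred in 23.4% and 21.4%. The differences reached 1.5-fold within both sets for the same 5 higher probe sets, against 2.4% of all tested, and for the 3 Vim probe sets among the lower, against 2.16%. limma called 0 of the 10 without a block (0 higher and 0 lower, against 0.00798% and 0.0479% of all tested, or 0.0559% together), and 8 had an unadjusted p under 0.05, as did 1510 of all 12527. With the set as a block it called Thy1 higher and 3 probe sets of Vim lower, against 0.255% and 0.208% of all tested. Probe sets of the same gene are not separate members. Counted by gene, at the probe set with the highest mean, 3 of the 6 tested were at least 1.5-fold higher within both sets and 1 lower. The shares of all tested genes were 3.04% and 1.64%. An unadjusted limma p under 0.05 was found for 4 of the 6. The genes were chosen with earlier results known, so these counts are no test. A comparison of the cKO array of set 2 with the WT array of set 1 leaves out the arrays that stood apart but mixes genotype with set. In it the same 5 probe sets were higher and the same 5 lower. This had to follow, because the genotype groups did not overlap on any of the 10.

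**Figure D2:**
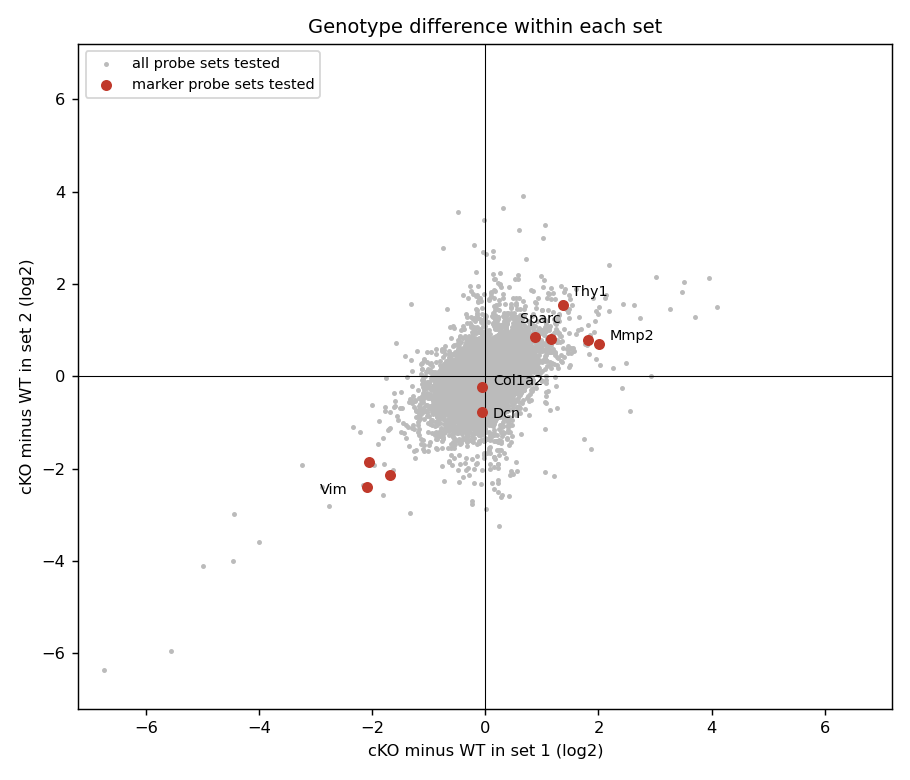
The cKO minus WT difference on the log2 scale within set 1 (horizontal axis) and within set 2 (vertical axis) for all 12527 probe sets tested (grey) and the 10 tested probe sets of the marker genes (red, 1 label per gene). Vim lies at the lower left, Thy1, Sparc and Mmp2 lie at the upper right, and Dcn and Col1a2 lie near 0 on the horizontal axis.

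In 31.8% of all tested probe sets, both arrays of set 2 lay on the same side of both arrays of set 1. For the 10 tested marker probe sets this could not occur. Their genotype groups did not overlap, and each set holds 1 array of each genotype. Of the dim probe sets, Col1a1 on 1455494_at had both set 2 values below both set 1 values. limma called 0 of the 12527 probe sets between the sets, where 452 had an unadjusted p under 0.05 and 0 of these were marker probe sets, and with the genotype as a block it called 5 (0.0399%), of which 0 were marker probe sets. Without that block, the genotype difference counts as variation within a set, so a small p was unlikely for the 10. The largest set difference among the 10 was that of Thy1, -0.77, and it did not pass (limma adjusted p = 0.999, and 0.292 with the genotype as a block). Mmp2 differed between the WT arrays, by 1.02 and 1.15 on its probe sets with set 2 higher, and by -0.01 and -0.16 between the cKO arrays.

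Other genes of the dermal matrix also included both dim genes and genes with differences in opposite directions. The list of other fibroblast and dermal matrix genes had 24 measured genes, each taken at its probe set with the highest mean, and 17 reached the test. Fap, Dpt, Prrx1, Twist2, Mfap5, Col6a3 and Loxl1, of which several are used to define dermal fibroblasts, lay below the limit on all 4 arrays, with no value above 4.71. Others of the list lay far above it. Postn read 13.71 and 13.74 in the cKO arrays against 12.85 and 13.64 in the WT arrays. Gsn read 13.31 and 13.26 in the cKO arrays against 13.20 and 12.79 in the WT arrays. Fbln1 read 10.35 and 10.09 in the cKO arrays against 10.44 and 10.13 in the WT arrays. limma called 0 of the 17 without the block, against 0.0747% of all tested genes. Both cKO arrays lay above both WT arrays for 7 of the 17, against 26.7% of all tested genes, and below them for 2, against 19.9%. With the set as a block it called 1 higher, against 0.324% of all 8031 tested genes, and 1 lower, against 0.249%.

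The gene called higher was S100a4, which encodes a calcium-binding protein of moving cells. It read 11.31 and 10.95 in the cKO arrays against 9.84 and 9.56 in the WT arrays (difference 1.43, SE 0.21, limma adjusted p = 0.189, and 0.0376 with the block). The gene called lower was Col14a1, which encodes a collagen that sits on the surface of type I fibrils. It read 7.21 and 7.36 in the cKO arrays against 9.11 and 8.82 in the WT arrays (difference -1.68, SE 0.18, limma adjusted p = 0.137, and 0.0376 with the block). Neither gene's groups overlapped.

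Fn1 and Col6a1 had differences of similar size and passed neither fit. Fn1, which encodes the adhesive matrix protein fibronectin, read 7.31 and 6.93 in the cKO arrays against 8.51 and 8.14 in the WT arrays (difference -1.20, limma adjusted p = 0.270, and 0.0542 with the block). Col6a1, a chain of the microfibrillar type VI collagen, read 9.26 and 8.95 in the cKO arrays against 7.97 and 8.03 in the WT arrays (difference 1.11, limma adjusted p = 0.217, and 0.0794 with the block). Over the 17 tested genes the median difference was 0.15, against 0.03 over all tested genes. At least 1.5-fold within both sets, 3 of the 17 were higher in cKO, against 3.04% of all tested genes, and 2 lower, against 1.64%.

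Among the small leucine-rich proteoglycans, the family of Dcn and Lum, Fmod, Bgn and Prelp reached the test and the other 5 measured genes were dim. Fmod, whose product fibromodulin binds collagen fibrils, read 7.85 and 6.68 in the cKO arrays against 5.12 and 5.42 in the WT arrays (difference 1.99). Its WT mean of 5.27 lay under the limit. Since it entered the test through the cKO arrays alone, no p is given. Both cKO arrays were above both WT arrays, and the cKO set 1 array was the highest. Its 4 other probe sets at the limit on at least 1 array gave differences of 0.73 to 1.25. Bgn, which encodes biglycan, read 11.27 and 11.51 in the cKO arrays against 11.32 and 11.60 in the WT arrays, so its groups overlapped. Prelp, which encodes a proteoglycan that anchors basement membranes to the matrix beneath, read 5.46 and 5.47 in the cKO arrays against 5.13 and 5.61 in the WT arrays. Ogn, Aspn, Omd, Kera and Epyc lay below the limit on all 4 arrays.

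Most genes of collagen synthesis were above the limit, and none passed the test. Their products hydroxylate, fold and trim procollagen in any cell that secretes collagen, keratinocytes included. Of 13 measured genes 10 were tested. limma called 0 of them without the block, against 0.0747% of all tested genes. With the block it called 0, against 0.324% higher and 0.249% lower. At least 1.5-fold within both sets, 0 differed, against 3.04% higher and 1.64% lower. With 10 genes, these counts cannot be told apart from the shares. The largest differences were 0.28 for P4ha2, 0.26 for Plod1, 0.21 for Plod3 and -0.21 for P4hb. Lox and Loxl1, lysyl oxidase genes that cross-link collagen, and Pcolce, an enhancer of procollagen trimming, were dim on all 4 arrays.

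The PDGF ligand genes did not share a direction. Pdgfa, the ligand that the follicle epithelium sends to dermal cells, read 9.92 and 9.64 in the cKO arrays against 10.49 and 10.44 in the WT arrays (difference -0.68, SE 0.18, limma adjusted p = 0.327). Pdgfc, another ligand of the same receptor, read 9.06 and 8.71 in the cKO arrays against 8.07 and 7.70 in the WT arrays (difference 0.99, SE 0.22, limma adjusted p = 0.299). The groups did not overlap for either gene, and neither passed the test with the block (adjusted p = 0.152 and 0.0826). Pdgfb had a difference of 0.46, and Pdgfd and the β receptor gene Pdgfrb, a pericyte marker, were dim on all 4 arrays.

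Of the genes that control Mmp2, 3 of 4 were above the limit and none passed the test, against 0.0747% of all tested genes. Timp2, whose product both inhibits Mmp2 and helps to dock its precursor for activation, read 10.94 and 10.34 in the cKO arrays against 9.93 and 9.69 in the WT arrays (difference 0.83, SE 0.25, limma adjusted p = 0.345). Both cKO values were above both WT values, and 4 further probe sets gave differences of 0.18 to 0.71. Mmp14, the membrane protease that activates Mmp2, read 10.58 and 10.42 in the cKO arrays against 10.58 and 10.51 in the WT arrays (difference -0.04, SE 0.16, limma adjusted p = 0.941). Timp3 differed by 0.19, and Reck was dim on all arrays.

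The dermal papilla, the cluster of fibroblasts below the hair germ, was represented by few signals. Of 11 measured papilla genes 8 were dim on all 4 arrays, among them Sox2, Corin, Alx4, Fgf7, Fgf10 and Alpl. Vcan, which encodes the large proteoglycan versican, read 5.24 and 4.99 in the cKO arrays, both under the limit, against 6.50 and 6.61 in the WT arrays. It entered the test through the WT arrays alone, so no p is given. Pappa, which encodes a protease that frees insulin-like growth factors, read 5.62 and 5.96 in the cKO arrays against 6.20 and 7.08 in the WT arrays (difference -0.85, limma adjusted p = 0.408). Transcription factors that drive epithelial cells to a mesenchymal state were dim, with 7 of 8 genes (Snai1, Zeb1, Zeb2, Twist1, Twist2, Foxc2 and the cadherin gene Cdh2) below the limit on all arrays. Snai2 was above it, at 9.29 and 8.96 in the cKO arrays against 8.83 and 9.12 in the WT arrays, with overlapping groups.

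**Figure D3:**
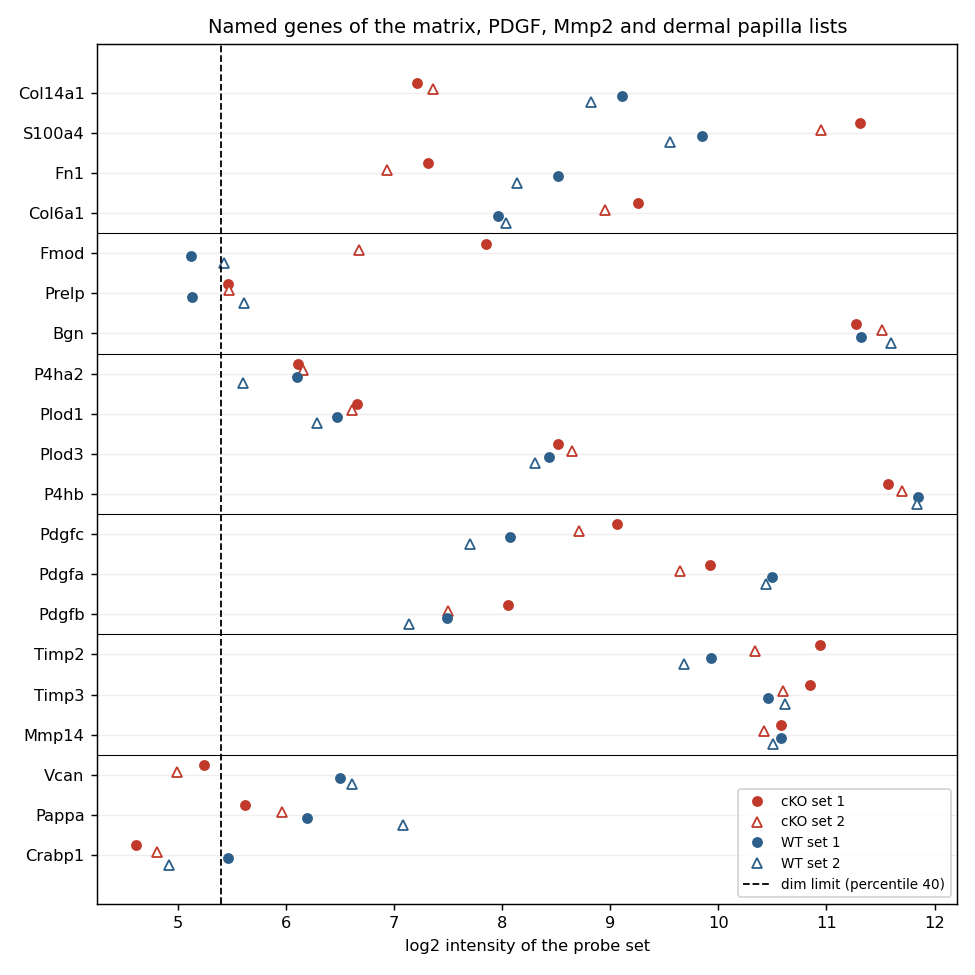
Log2 intensity (horizontal axis) of the named genes (rows) of the other matrix, proteoglycan, collagen synthesis, PDGF, Mmp2 control and dermal papilla lists, from top to bottom and divided by lines, with colours, symbols and dashed line as for the marker probe sets. Col14a1, Fn1, Pdgfa and Vcan lie to the left in cKO (red), and S100a4, Col6a1, Fmod, Pdgfc and Timp2 lie to the right.

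The endothelial list had 13 measured genes, of which 7 reached the limit on at least 1 array. Its summed linear intensity, with 1 probe set a gene, was 368 and 365 in the cKO arrays against 1092 and 801 in the WT arrays. Plvap, a component of the diaphragms of small vessels, read 4.29 and 4.19 in the cKO arrays against 8.29 and 7.78 in the WT arrays. It lay under the limit in the cKO arrays only, and since it entered the test through the WT arrays alone, no p is given. Vwf, which encodes von Willebrand factor, read 2.96 and 3.18 in the cKO arrays against 7.24 and 6.30 in the WT arrays. Emcn and Cdh5, genes of endothelial surface proteins, read 3.57 to 3.90 in the cKO arrays against 5.18 to 5.70 in the WT arrays. Vwf, Emcn and Cdh5 had means under the limit and were left out of the main test. Esam, which was at the limit in the WT arrays only, read 5.33 and 5.29 in the cKO arrays against 6.62 and 6.34 in the WT arrays. The endothelial genes at the limit on all 4 arrays, Egfl7 and Eng, had smaller differences on their probe set with the highest mean. Egfl7, which encodes a secreted vessel protein, read 6.70 and 6.49 in the cKO arrays against 7.43 and 6.68 in the WT arrays, with overlapping groups (difference -0.47, limma adjusted p = 0.546). Eng, which encodes the co-receptor endoglin, read 5.95 and 6.21 in the cKO arrays against 6.72 and 6.29 in the WT arrays (difference -0.43, limma adjusted p = 0.494). Another Eng probe set at the limit on at least 1 array had a larger difference, -1.26. For Egfl7, 2 further probe sets gave differences of -0.42 to -0.21. Pecam1, Kdr, Tek, Tie1, Cldn5 and Erg were dim on all 4 arrays. The part of endothelial RNA in the Vim, Vcan, Fn1 and Col14a1 values was not tested. Thy1, Sparc and Mmp2 were higher on the cKO arrays, and the part of endothelial RNA in their values was not tested either.

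Fabp4, which encodes a fatty acid binding protein used by adipocytes and by capillary endothelium, read 3.38 and 4.07 in the cKO arrays against 10.13 and 10.42 in the WT arrays. Both cKO values were under the limit, and since the gene entered the test through the WT arrays alone, no p is given. Lpl, which encodes the lipase that frees fatty acids from lipoproteins, read 6.23 and 6.53 in the cKO arrays against 5.99 and 6.29 in the WT arrays (difference 0.24, limma adjusted p = 0.653). Adipoq, Pparg, Lep, Retn, Cidec and Pck1 were dim on all 4 arrays. Smooth muscle and pericyte genes had a summed intensity of 1177 and 855 in the cKO arrays against 1062 and 867 in the WT arrays. Of their 10 genes 6, including Pdgfrb, Rgs5 and Myh11, were dim on all arrays. Of the 3 tested, limma called 0 without the block, against 0.0747% of all tested genes. With the block it called 0, against 0.324% higher and 0.249% lower. The leukocyte list summed to 413 and 381 in the cKO arrays against 386 and 314 in the WT arrays, and Ptprc, which encodes the common leukocyte antigen, was dim on all arrays. The melanocyte list summed to 378 and 366 in the cKO arrays against 252 and 320 in the WT arrays. The Schwann cell list summed to 71.6 and 77.4 in the cKO arrays against 58.9 and 55.4 in the WT arrays. Its 2 measured genes were S100b, dim on all 4 arrays, and Sox10, which is also on the melanocyte list. Sox10 read 5.68 and 5.80 in the cKO arrays against 5.46 and 5.33 in the WT arrays, near the limit. The part of these cell types in the differences of Thy1, Sparc and Mmp2 was not tested.

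**Figure D4:**
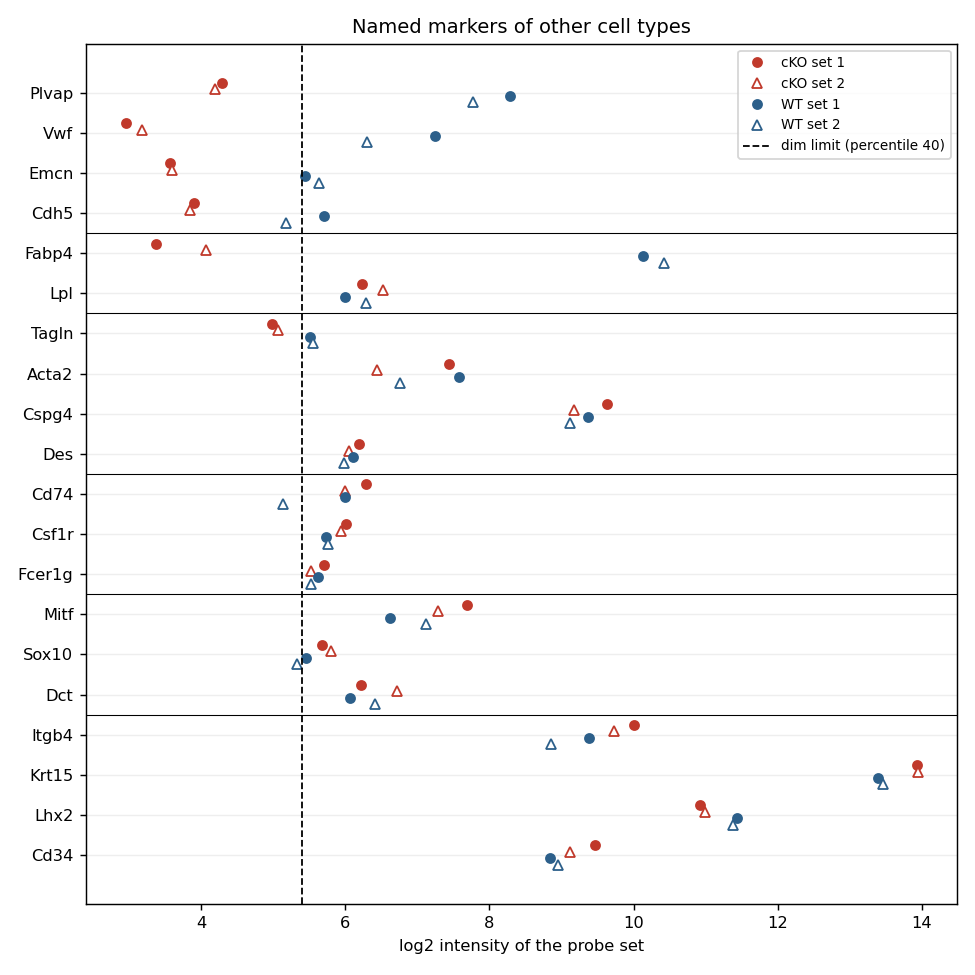
Log2 intensity (horizontal axis) of the named markers (rows) of endothelium, fat cells, smooth muscle and pericytes, leukocytes, melanocytes and bulge keratinocytes, from top to bottom and divided by lines, with colours, symbols and dashed line as for the marker probe sets. The 4 endothelial genes shown and Fabp4 lie left of the dashed line in cKO (red), and the keratinocyte genes lie right of it on all 4 arrays.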

How the data were processed

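RNA of 4 sorted samples was measured on Affymetrix arrays. The deposited intensity values, 1 per probe set and array, are on a linear scale from 5.29 to 25561. They were made with RMA, per the submitters' processing notes, which give no version. From the deposited values log2 was computed, and array medians lay at 6.36 to 6.38. Gene symbols came from the platform annotation. Probe sets with several symbols (691), with none (1555) or with control probes (64) were not analysed, nor was Xist or any Y-linked gene. Probe sets with a mean under percentile 40 were not tested. limma 3.58.1 in R 4.3.3 (lmFit, eBayes, 4 arrays, no covariate) compared cKO with WT and set 2 with set 1, with Benjamini-Hochberg adjustment over all probe sets tested and a threshold of 0.05. The fit was tested on simulated data without a set effect. High recovery was required only for simulated differences larger than that of any marker probe set. The power for the marker differences is therefore not given. The number of arrays limits the precision.

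The titles give 1 cKO and 1 WT array a set number and the descriptions give both the same state, so the set was read as a pairing. Over 12527 probe sets the set 2 minus set 1 differences of the genotypes correlated with r = 0.252. Blocked values stand beside results whose call they change or nearly change.

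All 10 members are named with every probe set, and of each other list up to 4 genes with the largest mean difference, plus the genes of a list that were dim on all arrays. Egfl7, Eng, Esam, Postn, Gsn and Fbln1 were added after their values were seen and have no row in the plots. Named genes of some lists are only shown in the plots. The members and lists were chosen with earlier results of these data known. Alternatives were other filters on dim probe sets, 1 probe set per gene, another normalisation or centring, a variance trend, the blocks, each array left out and, added after the data were seen, 1 pair of arrays alone.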

Additional observations from a re-analysis of the deposited data

Results flagged for a closer look

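Some marker probe sets moved in opposite directions between the sets in the cKO and WT arrays. These differences were not tested, since each genotype has 1 array in a set. For Mmp2, set 2 minus set 1 was -0.01 in cKO and 1.02 in WT on 1416136_at, which is -1.03 for cKO minus WT, and -0.16 in cKO and 1.15 in WT on 1439364_a_at, which is -1.30. For Dcn it was -0.34 in cKO and 0.38 in WT, which is -0.72. For Sparc on 1416589_at it was -0.16 in cKO and 0.20 in WT, which is -0.36. For Vim on 1450641_at it was 0.21 in cKO and -0.01 in WT, which is 0.22. For Col1a2 on 1450857_a_at it was -0.03 in cKO and 0.14 in WT, which is -0.17.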

How the results depend on the processing

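For cKO minus WT, none of the 10 tested marker probe sets changed direction under any alternative. Only another normalisation or centring could have changed it. The other alternatives left the difference as it was or dropped arrays, which cannot reverse groups that do not overlap. Under the alternatives 6 values gained a call. With the set as a replicate block these were Thy1 and the 3 Vim probe sets. With a variance trend and robust fit they were Vim on 1450641_at and 1456292_a_at. limma called 7 of all probe sets between the genotypes. The count was 58 with the set as a replicate block, 11 with the variance trend, 0 with a filter at percentile 60 and 0 to 12 with 1 array left out (3 without cKO set 1, 12 without cKO set 2, 0 without WT set 1 and 2 without WT set 2), where the lone array of a group is assumed to vary like the others. Between the sets it was 0, 0 with 1 array left out, and 5 with the genotype as a replicate block. A limit at percentile 50 or 60 for dim probe sets, against the 10 marker probe sets that passed at percentile 40, left 10 and 8, and percentile 40 of each array left 10. The set differences of marker probe sets, none of them called, changed sign in 16 of 40 fits with 1 array left out, where genotype and set are unbalanced. They ran from -0.063 to 0.17 for Col1a2 on 1450857_a_at, -0.37 to 0.41 for Dcn, -1.54 to 0.0057 for Thy1, -0.56 to 0.61 and -0.34 to 0.54 for Sparc on 1416589_at and 1448392_at, -0.40 to 1.41 and -0.51 to 1.5 for Mmp2 on 1416136_at and 1439364_a_at, and -1.43 to 0.71, -0.93 to 1.13 and -1.46 to 0.94 for Vim on 1438118_x_at, 1450641_at and 1456292_a_at.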
